A study of Mus musculus with 7 samples.

Results

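The genes described here are 10 immediate early transcription factor genes of 3 families, chosen by symbol from the 15815 genes of the deposited table. They are Nr4a1, Nr4a2 and Nr4a3 (3 nuclear receptors), Egr1, Egr2 and Egr3 (3 zinc finger factors), and Fos, Jun, Junb and Fosl2 (4 subunits of the dimeric factor AP-1). All 10 were listed, and all 10 passed the expression filter of a mean normalized count of at least 10. They were measured by RNA-seq in mouse regulatory T (Treg) cells, CD4 T cells that depend on the transcription factor Foxp3. KO 1 to 3 are 3 libraries of YFP+ Treg cells that lacked Hpgd, the gene of an enzyme that inactivates prostaglandins, and WT 1 to 4 are 4 libraries of YFP+ WT Treg cells. Every host was a Rag-/- mouse, which has no T or B cells of its own, and had also been given naive T cells and Treg cells of WT origin 8 weeks earlier. Mesenteric lymph nodes (mLN) were the tissue from which the YFP+ cells were sorted. The strain is given as C57BL/6JRcc, and 1 line is named for all 7 libraries, Hpgd fl with Foxp3-YFP-Cre, in which the Cre acts in Foxp3-expressing cells. The line label does not separate the groups, and the genotype therefore comes from the sample titles and the design text. Ages of the mice are not given. Whether the 7 libraries stem from 7 different hosts is not stated, and the p-values measure only how these samples spread, which may be partly technical.

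Immediate early genes are transcribed within minutes of a stimulus from factors already present in the cell, and many of their mRNAs are short-lived. In T cells, antigen receptor signalling raises calcium and activates the MAP kinases, and serum response factor, CREB, NFAT and MEF2 then act on these genes. Egr2 and Egr3 restrain T cell activation, the Nr4a factors act in Treg development and identity, and AP-1 subunits pair with each other and with NFAT at many activation genes. Prostaglandin E2 can raise cAMP through its receptors, and cAMP can induce several of these genes through CREB. Cell sorting and tissue dissociation can also induce them.

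The upstream sequences of 6 of the genes are shown because the values below turn on them. Egr2 and Fos had the widest spread, and Fosl2 was the one gene whose groups did not overlap. Nr4a1 and Nr4a3 had the highest correlation within the Nr4a family, and Jun and Junb within AP-1 (neither passed after adjustment). Of the last pair only Jun is shown. The sequences are RefSeq promoter windows of GRCm38.p6, each cut to the 250 bases before the transcription start and written in the direction of transcription. Capitals mark matches to the searched motifs on either strand.

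Nr4a1: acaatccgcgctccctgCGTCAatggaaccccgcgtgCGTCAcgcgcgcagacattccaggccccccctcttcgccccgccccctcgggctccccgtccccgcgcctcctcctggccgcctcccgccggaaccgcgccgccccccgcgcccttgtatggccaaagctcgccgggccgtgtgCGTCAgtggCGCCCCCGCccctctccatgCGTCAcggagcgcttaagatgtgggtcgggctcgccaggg
Nr4a3: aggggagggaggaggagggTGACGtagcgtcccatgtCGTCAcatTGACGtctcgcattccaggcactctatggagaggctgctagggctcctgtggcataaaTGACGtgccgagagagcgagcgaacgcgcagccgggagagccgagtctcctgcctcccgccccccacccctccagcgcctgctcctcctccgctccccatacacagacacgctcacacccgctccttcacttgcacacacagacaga
Egr2: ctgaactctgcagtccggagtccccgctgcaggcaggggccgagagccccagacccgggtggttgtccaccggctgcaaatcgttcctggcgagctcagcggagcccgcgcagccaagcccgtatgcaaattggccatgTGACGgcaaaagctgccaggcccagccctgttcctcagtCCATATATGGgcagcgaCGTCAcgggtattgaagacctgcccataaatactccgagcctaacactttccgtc
Fos: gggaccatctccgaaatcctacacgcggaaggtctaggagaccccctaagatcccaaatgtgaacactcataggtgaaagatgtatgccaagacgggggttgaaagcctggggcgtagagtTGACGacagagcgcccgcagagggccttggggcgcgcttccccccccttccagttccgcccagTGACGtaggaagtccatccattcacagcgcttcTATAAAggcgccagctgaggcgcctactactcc
Jun: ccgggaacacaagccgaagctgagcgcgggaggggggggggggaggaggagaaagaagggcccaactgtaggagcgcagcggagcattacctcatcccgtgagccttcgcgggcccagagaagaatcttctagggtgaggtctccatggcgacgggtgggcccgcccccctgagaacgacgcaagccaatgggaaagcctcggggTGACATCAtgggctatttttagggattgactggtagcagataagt
Fosl2: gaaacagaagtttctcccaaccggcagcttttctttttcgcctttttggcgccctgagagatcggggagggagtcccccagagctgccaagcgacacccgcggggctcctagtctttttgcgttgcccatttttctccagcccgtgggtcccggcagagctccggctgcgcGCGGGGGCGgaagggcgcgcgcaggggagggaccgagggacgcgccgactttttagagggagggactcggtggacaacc

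These stretches lie at chr15:101266596-101266845 (Nr4a1, plus strand), chr4:48045055-48045304 (Nr4a3, plus strand), chr10:67537619-67537868 (Egr2, plus strand), chr12:85473640-85473889 (Fos, plus strand), chr4:95052223-95052472 (Jun, minus strand) and chr5:32136222-32136471 (Fosl2, plus strand). The search covered the whole RefSeq windows, from 250 bases before to 50 bases after each start, on both strands. Windows were found for 8 of the 10 genes, 12 windows in all, and not for Egr1 and Egr3. The core TGACG of the cAMP response element was in windows of 6 of the 8 genes (Nr4a1, Nr4a2, Nr4a3, Egr2, Fos and Junb). Counted by window it was in 8 of the 12, against 20.8% of all 32851 windows. Egr2 had several windows, and some of them overlap. Nr4a1, Nr4a2 and Nr4a3 held 4 copies each. In the Fos window 1 copy lay at -66 to -62, with the start base counted as 0, and the TATA box TATAAA at -33 to -28. The full element TGACGTCA, which contains this core, was in 0 of the 8 genes and in 1.79% of windows. The CArG box, the site of serum response factor, was found in 1.63% of windows and among the 8 genes in Egr2 alone, at -72 to -63 of the window shown. By window it was in 4 of the 12. Every other motif searched was in as many of the 12 windows as genes. The Egr site GCGNGGGCG, in 5.55% of windows, was in Fosl2, Nr4a1 and Nr4a2. The AP-1-like variant TGACATCA, in 3.62% of windows, was in Jun at -45 to -38, and the AP-1 site TGANTCA was in 0 of the 8 genes and in 7.81% of windows. The Nr4a site AAAGGTCA was in 0 of the 8 genes and in 1.51% of windows. TATAAA was in 3 of the 8 genes (Fos, Junb and Nr4a2) and in 13.6% of windows. A match describes letters in a window and was not related to binding.

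Library depth ranged from 4135733 reads in KO 3 to 9501939 in KO 1, and from 6129064 in WT 3 to 10622507 in WT 4. KO 3 and WT 2 stood apart at the ends of the first principal component (35.1% of the variance), at -61.0 and 81.9, and results that rest on them are given with and without both. Normalized counts are reads divided by 1 size factor per library, so 1 read was worth 1.84 in KO 3 and 0.703 in WT 4. Hpgd was at 0.759, 2.42 and 5.52 in KO 1 to 3 and at 18.7, 9.96, 10.2 and 13.4 in WT 1 to 4 (exact two-sided permutation p = 0.0286, the smallest that 35 splits allow). All 7 Treg markers in the table were detected in every library, summing to 31932 to 34399 in KO and 29865 to 35244 in WT, and Foxp3 was at 124 ± 17.5 (SD, n = 3) in KO and 107 ± 42.7 (SD, n = 4) in WT. Markers of other cells were detected too: their sums ran over 355 to 435 in KO and 323 to 759 in WT for 4 B cell genes, 3172 to 4456 in KO and 2233 to 6289 in WT for 8 CD8 T and NK cell genes, and 317 to 434 in KO and 253 to 470.5 in WT for 5 stromal and endothelial genes. Few genes made up most of each sum. Their means in KO and WT were 376 and 496 for Cd79b (B cell) and 308 and 305 for Pecam1 (stromal and endothelial). In the CD8 T and NK list they were 2458 and 3238 for Nkg7 and 1029 and 773 for Gzma. Cd79a, Ms4a1 and Cd8a of these lists had means of at most 10.4 in either group. Across the 11787 tested genes, 0 genes (0%) passed an adjusted p of 0.05 between KO and WT in limma, as did 0 with voom on the recovered reads, 211 (1.79%; 0.781% higher and 1.01% lower in KO) had an unadjusted p under 0.05, and 430 (3.65%) had groups that did not overlap. Fewer cells that express a gene and less of its RNA per cell cannot be told apart in these bulk libraries.

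The 3 Nr4a genes encode orphan nuclear receptors. All 3 estimates were lower in KO, and 0 of 3 passed the test. Nr4a1, which encodes Nur77 and is widely used as a reporter of antigen receptor signalling, lies on chromosome 15 (mm10, 101254269 to 101274795, plus strand, 8 exons). Its normalized counts were 486, 370.0 and 287 in KO 1 to 3 and 299, 884, 470.5 and 488 in WT 1 to 4. WT 2 stood far above all other libraries, KO 3 was lowest, and the groups overlapped. The means were 381 ± 99.9 (SD, n = 3) in KO and 535 ± 247 (SD, n = 4) in WT, and the limma log2 fold change, a difference of mean log2 values and not the ratio of these means, was -0.41 (SE 0.33, 95% interval from -1.12 to 0.29, limma adjusted p = 1.00). With WT 2 and KO 3 left out, Nr4a1 had a log2 fold change of 0.05.

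Nr4a3, which encodes NOR1, lies on chromosome 4 (48045153 to 48086447, plus strand). It was at 246, 158 and 167 in KO 1 to 3 and at 134, 262, 269 and 286 in WT 1 to 4. WT 1 was the lowest of all 7 libraries and the other 3 WT libraries were the highest, so the KO values lay inside the WT range. The means were 191 ± 48.2 (SD, n = 3) in KO and 238 ± 69.8 (SD, n = 4) in WT (log2 fold change -0.29, SE 0.32; limma adjusted p = 1.00). Nr4a2, which encodes Nurr1, lies on chromosome 2 (57106830 to 57124003, minus strand). It was the least abundant of the 10 genes, at 30.4, 50.9 and 79.1 in KO 1 to 3 and 45.1, 60.7, 82.6 and 99.1 in WT 1 to 4. Its means were 53.4 ± 24.5 (SD, n = 3) in KO and 71.9 ± 23.8 (SD, n = 4) in WT, with overlapping groups (log2 fold change -0.46, SE 0.45; limma adjusted p = 1.00). KO 3, WT 3 and WT 4 held its highest values and KO 1 and WT 1 its lowest, a different order from that of Nr4a1. The ratio of Nr4a2 to Nr4a1 ran from 0.0625 to 0.276 in KO and from 0.0686 to 0.203 in WT.

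**Figure D1:**
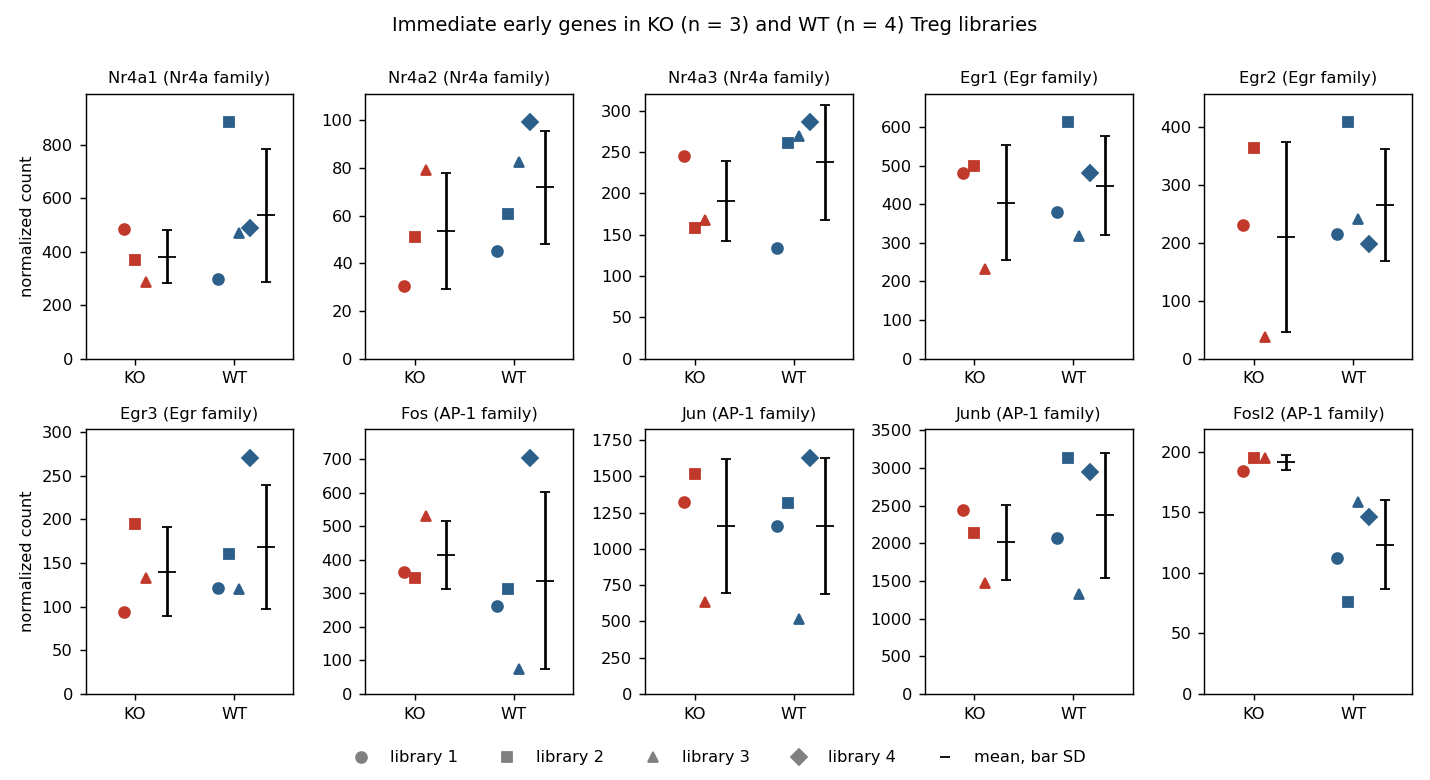
Normalized counts of the 10 genes, 1 panel per gene, in KO libraries (red, n = 3) and WT libraries (blue, n = 4). The marker shape gives the library number and black bars the mean and SD. Fosl2 is the panel in which the KO values (184 to 195) all lie above the WT values (76.0 to 158), Egr2 has 1 low KO value (36.8) and Fos 1 low WT value (74.6).

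The 3 Egr genes encode zinc finger factors that bind GC-rich sites. All 3 estimates were lower in KO, and 0 of 3 passed. Egr1, a factor induced by ERK signalling in most cell types, lies on chromosome 18 (34859823 to 34864984, plus strand, 2 exons). It was at 482, 498 and 234 in KO 1 to 3 and at 381, 613, 319 and 481 in WT 1 to 4. KO 3 was lowest and WT 2 highest, and the other values of both groups were interleaved. The means were 405 ± 148 (SD, n = 3) in KO and 448 ± 128 (SD, n = 4) in WT (log2 fold change -0.18, SE 0.31; limma adjusted p = 1.00). With WT 2 and KO 3 left out it was 0.34.

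Egr2, which with Egr3 promotes T cell anergy, lies on chromosome 10 (67535475 to 67542188, plus strand, 2 exons). It was at 231, 363 and 36.8 in KO 1 to 3 and at 216, 407, 241 and 197 in WT 1 to 4. The value in KO 3 rests on 20 reads, with a 95% Poisson interval from 22.5 up to 56.8 that covers counting error, and lay 11.1-fold below WT 2. The means were 210.1 ± 164 (SD, n = 3) in KO and 265 ± 96.5 (SD, n = 4) in WT. The log2 fold change was -0.79 (SE 0.60, 95% interval from -2.09 to 0.50, limma adjusted p = 1.00), and it was 0.19 without KO 3. The SD of its log2 level over the 7 libraries, 1.13, was at percentile 91.4 of all tested genes, whose median SD was 0.40.

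Egr3 lies on chromosome 14 (70077203 to 70082614, plus strand). It was at 93.3, 195 and 132 in KO 1 to 3 and at 121, 160.2, 119.9 and 271 in WT 1 to 4. KO 1 was lowest and WT 4 highest, and KO 3 was not low for Egr3 as it was for Egr1 and Egr2. The means were 140.1 ± 51.1 (SD, n = 3) in KO and 168 ± 71.0 (SD, n = 4) in WT (log2 fold change -0.24, SE 0.37; limma adjusted p = 1.00). The ratio of Egr2 to Egr1 was 0.479, 0.728 and 0.157 in KO 1 to 3 and 0.566, 0.665, 0.755 and 0.409 in WT 1 to 4, so KO 3 was lowest within the family too.

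AP-1 is a dimer of a Fos and a Jun protein or of 2 Jun proteins. Of the 4 AP-1 genes 3 had higher estimates in KO (Fos, Fosl2 and Jun) and 1 a lower one (Junb), and 0 of 4 passed. Fosl2, which encodes Fra-2, a Fos-family subunit without the strong activation domain of c-Fos, lies on chromosome 5 (32135801 to 32157842, plus strand, 4 exons). It was at 184, 195 and 195 in KO 1 to 3 and at 112, 76.0, 158 and 146 in WT 1 to 4. Each KO library was above each WT library, in 12 of 12 pairs. The KO values lay closer together than their counting intervals are wide. The 95% Poisson interval was 161 to 208 in KO 1 and 160 to 236 in KO 3, on 106 reads. That of WT 3, the highest WT library, was 133 to 187 and overlapped both. Groups with all KO values higher occurred in 202 of the 11787 tested genes (1.71%), and Fosl2 was the 1 of the 10 genes among them. The means were 191 ± 6.44 (SD, n = 3) in KO and 123 ± 37.0 (SD, n = 4) in WT. The log2 fold change was 0.68 (SE 0.31, 95% interval from 0.00 to 1.36, limma unadjusted p = 0.0489, adjusted p = 1.00), a 1.61-fold higher level with an interval of 1.00 to 2.57. The exact two-sided permutation p was 0.0857, and 0.0286 is the smallest that the design allows.

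The unadjusted p of Fosl2 depended on single libraries: in limma it was 0.0888, 0.111 and 0.0901 without KO 1, KO 2 or KO 3. Leaving out WT 1, WT 2, WT 3 or WT 4 gave 0.0878, 0.0984, 0.0268 and 0.0453. Without both WT 2 and KO 3 the log2 fold change was 0.46 with an unadjusted p of 0.131. Over the 7 libraries Fosl2 was lowest where the share of reads from ribosomal protein genes was highest, in WT 2. This share did not separate the groups, at 4.35 to 4.50% in KO and 5.52, 7.61, 4.49 and 4.47% in WT 1 to 4. The Pearson r with that share was -0.94 (exact permutation p = 0.00377) and Spearman rho -0.86 (p = 0.0238), with adjusted p = 0.104 and 0.357 over 30 relations, and r was -0.58 without WT 1 and WT 2, the libraries farthest from the median. The summed level of the 4 erythroid markers in the table, of 7 on the list, did separate the groups. All 4 were detected in every library and 3 of them did not overlap between the groups (Alas2 did), with sums of 62.2 to 199 in KO and 491 to 2033 in WT. The part of either in the Fosl2 values was not tested.

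Fos, the prototype immediate early gene, lies on chromosome 12 (85473890 to 85477273, plus strand, 4 exons). It was at 365, 347 and 531 in KO 1 to 3 and at 261, 312, 74.6 and 704 in WT 1 to 4. The WT libraries spanned the whole range, 9.43-fold from WT 3 to WT 4, and the KO values lay inside it. The WT 3 value rests on 66 reads (95% Poisson interval 57.7 to 95 for counting error alone). The means were 414 ± 102 (SD, n = 3) in KO and 338 ± 265 (SD, n = 4) in WT, a ratio of means of 1.23. On the log2 scale, where the low WT 3 value weighs more, the fold change was 0.66 (SE 0.54, 95% interval from -0.51 to 1.84, limma adjusted p = 1.00). It was 0.08 without WT 3 and 1.15 without WT 4. The SD of the log2 level of Fos was 1.02, at percentile 89.2 of tested genes.

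Jun, which encodes the central Jun subunit c-Jun, is a gene of 1 exon on chromosome 4 (95049034 to 95052222, minus strand). It was at 1320.5, 1516 and 636 in KO 1 to 3 and at 1159, 1316, 518 and 1627 in WT 1 to 4. KO 3 and WT 3 were low and the other 5 libraries lay between 1159 and 1627, and the means were 1158 ± 462 (SD, n = 3) in KO and 1155 ± 467 (SD, n = 4) in WT (log2 fold change 0.03, SE 0.38; limma adjusted p = 1.00). The annotation has an antisense gene, Junos, that shares 232 exon bases with Jun and is not listed in the table. Junb, whose product can oppose c-Jun, is also a gene of 1 exon, on chromosome 8 (84974484 to 84978718, minus strand). It was the most abundant of the 10 genes, at 2444, 2133 and 1467 in KO 1 to 3 and 2072, 3136, 1331 and 2942 in WT 1 to 4. KO 3 and WT 3 were again the lowest libraries, and the means were 2015 ± 499 (SD, n = 3) in KO and 2370.5 ± 833 (SD, n = 4) in WT (log2 fold change -0.19, SE 0.29; limma adjusted p = 1.00). Junb shares 173 exon bases with Prdx2 on the opposite strand, and since SmartSeq2 does not mark strand, reads there cannot be told apart.

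WT 3 was the lowest library for Fos, Jun and Junb. It also held the lowest sums of myeloid markers (654 to 2224 in KO, against 322 in WT 3 and 1328 to 1454 in the other WT libraries) and of dendritic cell markers (1089 to 2048 in KO, against 513 in WT 3 and 1572 to 2334 in the other WT libraries). All 9 myeloid and all 8 dendritic cell markers were in the table, and 7 and 5 of them were detected in every library. Cd14 was listed at 0 in KO 2, WT 1 and WT 3, and Batf3 in KO 3, WT 2 and WT 3. Among the tested markers, WT 3 was the lowest WT library for Lyz2, Csf1r, Cd68, Adgre1, H2-Aa and H2-Ab1. It was the highest WT library for S100a8, S100a9, Xcr1 and Siglech, so the lists did not move as a whole. The part of these cells in the AP-1 values was not tested.

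Over all 10 genes, 7 estimates were lower and 3 higher in KO, and the median log2 fold change was -0.21, against 0.01 over all tested genes, of which 48.2% had lower and 51.8% higher estimates. The family medians were -0.41 for Nr4a, -0.24 for Egr and 0.35 for AP-1. None of the 10 passed the limma test in the fit to all libraries or in any of 20 alternatives, where the lowest adjusted p of a member was 0.921. Without both WT 2 and KO 3 the estimates of Nr4a1, Egr1, Egr2 and Junb were positive, and the family medians were -0.14 for Nr4a, 0.34 for Egr and 0.48 for AP-1.

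**Figure D2:**
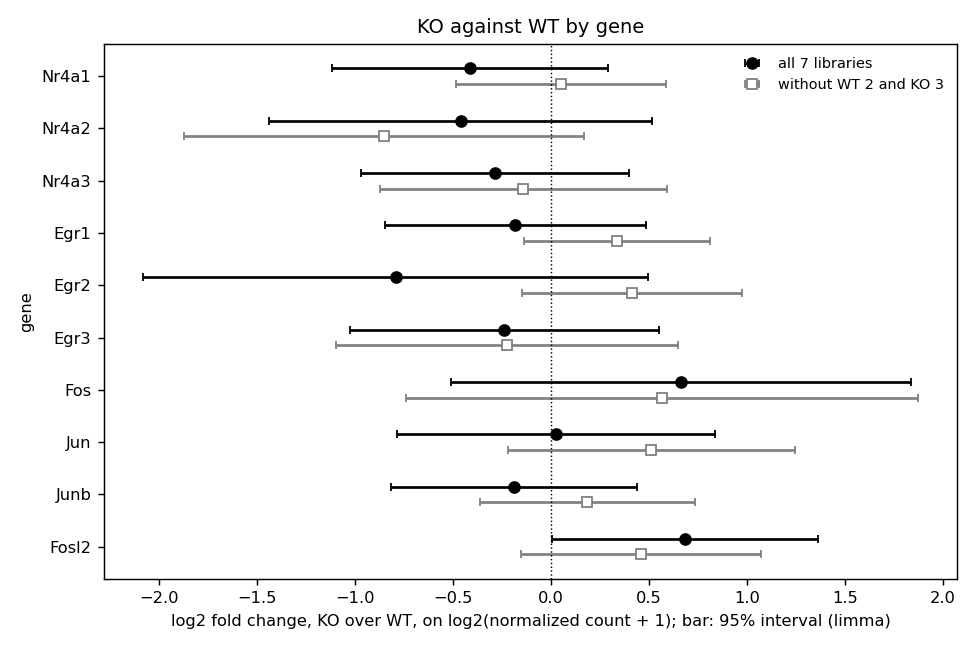
Log2 fold changes of the 10 genes, KO over WT, on the log2(normalized count + 1) scale, with 95% limma intervals, from all 7 libraries (black circles) and without WT 2 and KO 3 (open squares). Intervals span 0 for every gene except Fosl2 in the fit to all libraries, whose lower bound is 0.00 after rounding, and the estimates of Nr4a1, Egr1, Egr2 and Junb change sign.

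Mean levels over the 7 libraries were also taken per kilobase of the longest transcript that the annotation tags as principal. They were 1226 for Junb, 363 for Jun, 184 for Nr4a1, 176 for Fos and 95.8 for Egr1. Below these were 81.5 for Egr2, 39.6 for Egr3, 38 for Nr4a3, 23.3 for Fosl2 and 17.9 for Nr4a2. The 2 most abundant AP-1 genes thus stood above both other families, while Fosl2 stood near the bottom. Junb was above Jun in 7 of 7 libraries (exact sign-flip permutation p = 0.0156) and Jun above Nr4a1 in 6 of 7 (exact p = 0.0313). The other 7 neighbouring pairs had exact p-values from 0.0625 to 0.875, and after adjustment over the 9 pairs the lowest p was 0.141. Each neighbouring pair other than Junb and Jun changed order in at least 1 library.

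Joint variation was then examined over the 7 libraries, as deviations of log2(normalized count + 1) from each gene's mean. KO 1, KO 2 and KO 3 were above the mean for 8, 7 and 3 of the 10 genes, and WT 1, WT 2, WT 3 and WT 4 for 2, 9, 5 and 9. KO 3 held the highest value of 1 gene, Fosl2, WT 2 of 4 genes and WT 4 of 5. The family averages did not follow the same libraries. KO 3 was at -1.13 for Egr but -0.03 for AP-1, and WT 3 was at -0.91 for AP-1 but 0.31 for Nr4a. Members of a family differed as well. In KO 3, Jun was at -0.75 and Junb at -0.53, but Fos at 0.77 and Fosl2 at 0.42. Egr2 was at -2.42 there, on 20 reads, Egr1 at -0.82 and Egr3 at -0.15. The genotype means were -0.22 in KO and 0.17 in WT for Nr4a, -0.23 in KO and 0.17 in WT for Egr, and 0.17 in KO and -0.13 in WT for AP-1. In each family the range over the 4 WT libraries was wider than the difference between these means.

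**Figure D3:**
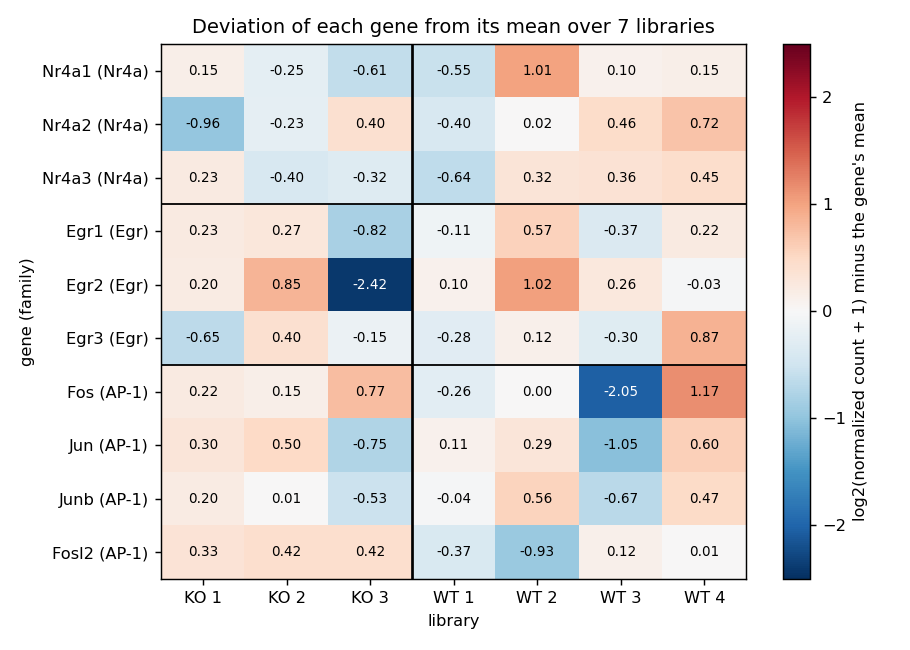
Deviation of each gene from its own mean over 7 libraries, in log2(normalized count + 1), with KO libraries left of the vertical line and families separated by horizontal lines. Red is above and blue below the mean. The lowest cells are Egr2 in KO 3 (-2.42) and Fos in WT 3 (-2.05), and WT 2 and WT 4 are at or above the mean for most genes.

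Of the 45 pairs of genes, 30 had a positive Pearson r and 15 a negative one. After adjustment over the 45 pairs 0 passed (lowest exact permutation adjusted p = 0.228), and 5 had an unadjusted p under 0.05. Within families the median r was 0.32 for Nr4a (0.04 to 0.77), 0.34 for Egr (0.16 to 0.85) and 0.33 for AP-1 (-0.53 to 0.90). Between families it was 0.28 for Nr4a with Egr, 0.46 for Egr with AP-1 and -0.07 for Nr4a with AP-1. The order of these medians was not tested and changed with the libraries: without KO 1 it was 0.74 for Nr4a, 0.58 for Egr and 0.53 for Egr with AP-1, and without WT 2 and KO 3 it was 0.53 for AP-1 and 0.48 for Egr with AP-1.

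Jun and Junb had the highest r, 0.90 (exact permutation p = 0.0101; Spearman rho 0.75, p = 0.0663; n = 7), and it was 0.35 without KO 3 and WT 3, so it rests on those 2 libraries, and 0.93 without WT 2 and KO 3. Egr1 and Junb had r = 0.88 (exact permutation p = 0.00794; rho 0.82, p = 0.0341; n = 7), and 0.74 without KO 3 and WT 3, the 2 libraries farthest from the median of Egr1, or 0.86 without WT 2 and KO 3. Egr1 and Egr2 had r = 0.85 (exact permutation p = 0.0157; rho 0.75, p = 0.0663; n = 7), and 0.73 without the 2 farthest, or 0.26 without WT 2 and KO 3. Egr1 and Jun had r = 0.83 (exact permutation p = 0.0252; rho 0.64, p = 0.139; n = 7), and 0.36 without the 2 farthest, on which it rests, or 0.93 without WT 2 and KO 3. Nr4a1 and Nr4a3 had r = 0.77 (exact permutation p = 0.0409; rho 0.71, p = 0.0881; n = 7), and 0.97 without KO 3 and WT 2. The adjusted p-values of these 5 pairs ran from 0.228 to 0.368 for r, and the lowest for rho was 0.661.

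The same pairs were computed on deviations from the genotype means, which removes any difference between KO and WT. They had r = 0.92 for Jun and Junb, 0.88 for Egr1 and Junb, 0.85 for Egr1 and Egr2, 0.85 for Egr1 and Jun and 0.73 for Nr4a1 and Nr4a3, and 33 of the 45 pairs were positive. Without that removal, on the levels themselves, Fosl2 went against most of the others, and 8 of its 9 values of r were negative. They ran from -0.63 with Nr4a1 (exact permutation p = 0.132, rho -0.61, p = 0.167) to 0.10 with Fos. The value with Nr4a1 was 0.53 without WT 2 and KO 3.

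**Figure D4:**
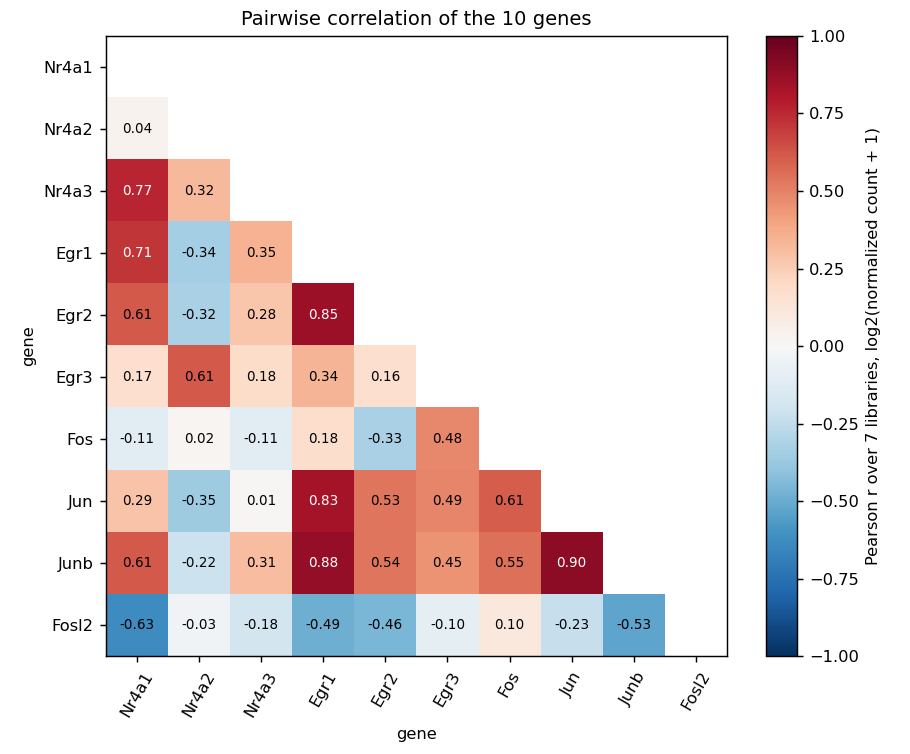
Pearson r of log2(normalized count + 1) for each of the 45 pairs over 7 libraries, red positive and blue negative. The block of Egr1 with Egr2, Jun and Junb and the pair Jun and Junb hold values from 0.83 to 0.90, and the Fosl2 row is negative except with Fos (0.10).

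The relation of these genes to library depth was examined next, and 0 of the relations passed after adjustment. The 10 genes together took 0.0816%, 0.0808% and 0.0495% of reads in KO 1 to 3 and 0.0669%, 0.0907%, 0.0517% and 0.0970% in WT 1 to 4. The 2 lowest shares were those of the 2 shallowest libraries, KO 3 and WT 3. Junb and Jun, with mean normalized counts of 2218 and 1156, weigh most in this share. In both KO 3 and WT 3, Egr1, Egr3, Jun and Junb were below their own means, and Nr4a2 and Fosl2 above. The correlation of the log2 level with log2 total reads was r = 0.92 for Egr1 (exact permutation p = 0.00714; rho 0.64, p = 0.139), 0.84 for Jun (exact permutation p = 0.0177; rho 0.93, p = 0.00675) and 0.82 for Junb (exact permutation p = 0.0208; rho 0.75, p = 0.0663). Among the 11787 tested genes these r stood at percentiles 99.7, 98.1 and 97.6. After adjustment over 30 relations the lowest p was 0.104 for r and 0.202 for rho. Without KO 3 and WT 3, the libraries farthest from the median depth, r was 0.58, 0.84 and 0.62 for these genes. Fosl2 had r = -0.22 with depth. The 30 relations also cover the ribosomal protein share and the score on the first principal component. With that score r was 0.88 for Egr1, 0.82 for Junb, 0.80 for Nr4a1 and -0.81 for Fosl2. Their exact permutation p-values ran from 0.0115 to 0.0435 (adjusted 0.104 to 0.163). The other genes ran from -0.33 for Nr4a2 to 0.74 for Egr2. Without KO 3 and WT 2, the ends of that component, r was 0.71, 0.81, -0.28 and -0.09 in the same order. Normalization divides out depth itself, and what else differs between shallow and deep libraries was not tested.

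**Figure D5:**
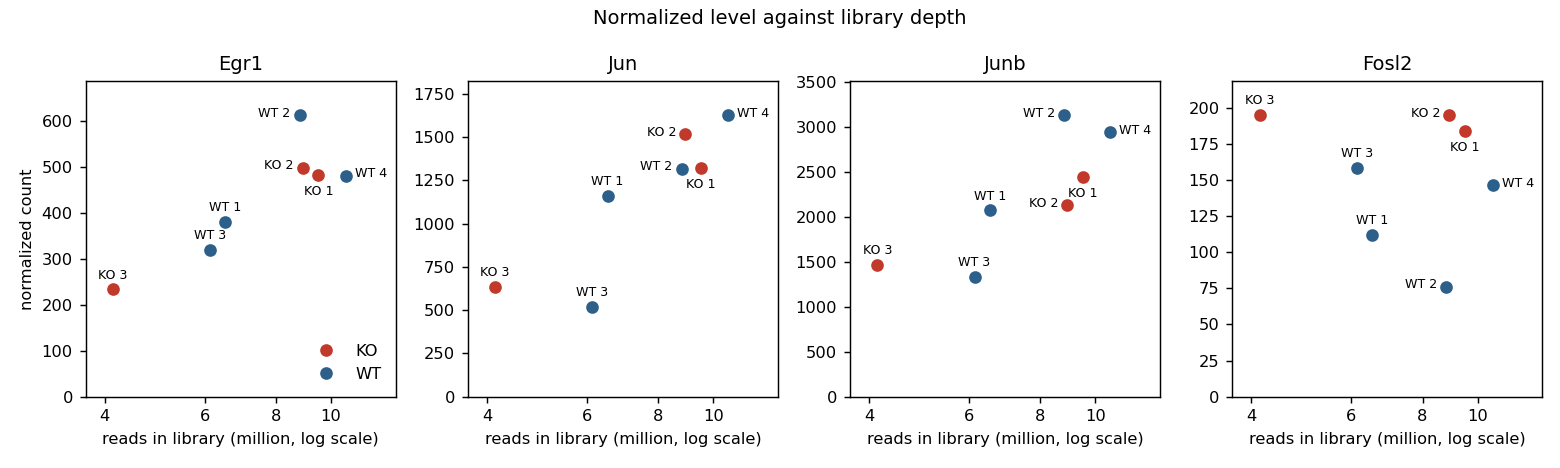
Normalized counts of Egr1, Jun, Junb and Fosl2 against reads per library (log scale), KO red and WT blue. Egr1, Jun and Junb are lowest in KO 3 and WT 3, the 2 libraries with the fewest reads. The 3 KO values of Fosl2 lie between 184 and 195, a range narrower than their counting intervals.

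The partners and neighbours of these genes in the pathway gave 187 tested genes. Of these, 0 of 187 passed the limma test in the fit to all libraries or in any of 20 alternatives. Groups without overlap occurred in 3.65% of all tested genes. In the lists below they occurred in 2 of 11 AP-1 subunit genes, 1 of 43 immediate early genes and 1 of 24 upstream regulators. They also occurred in 2 of 26 cascade genes, 1 of 22 stress genes and 0 genes of the other lists. Among 11 other tested AP-1 subunit genes 7 had higher KO estimates and 4 lower ones (median log2 fold change 0.11). Jund, which encodes the Jun subunit usually present in resting cells, was at 257, 209 and 272 in KO 1 to 3 and at 318, 457, 378 and 401 in WT 1 to 4. Its groups did not overlap, and the log2 fold change was -0.65 (SE 0.23; limma unadjusted p = 0.0141, adjusted p = 1.00). Batf, which with Jun proteins and IRF4 acts in effector Treg cells, was at 896 ± 159 (SD, n = 3) in KO and 815 ± 147 (SD, n = 4) in WT (log2 fold change 0.14, SE 0.21). Maf, an abundant bZIP gene at 2363 ± 711 in KO and 2263 ± 910.5 in WT, and Atf2, at 616 ± 206 and 453 ± 133, did not pass either. Mafk, named here after its values were seen, was the other gene of the list without overlap, at 217 to 224.6 in KO and 225.5 to 295 in WT. Its closest values were those of KO 1 and WT 1, where 1 read was worth 0.759 and 1.10. The log2 fold change of Mafk was -0.20 (SE 0.23; limma unadjusted p = 0.411).

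Of 6 tested partners of the Egr and Nr4a factors 1 estimate was higher and 5 lower, with a median of -0.21. The Egr corepressor gene Nab2, itself an Egr target, was at 116 ± 41.4 (SD, n = 3) in KO and 153 ± 40.3 (SD, n = 4) in WT. Nab2 was lowest in KO 3 and highest in WT 2, the ends of the first principal component, as Egr1 and Egr2 were. Its paralog Nab1 was at 1130.1 ± 87.6 in KO and 1088 ± 276 in WT. Of 15 tested anergy genes downstream of Egr2 and Egr3, 10 estimates were higher and 5 lower (median 0.06). Among them the ubiquitin ligase gene Itch was at 845 ± 180.3 in KO and 656 ± 139.6 in WT, Socs1 at 1128 ± 282 in KO and 1412 ± 452 in WT, and the diacylglycerol kinase gene Dgka at 4658 ± 314 in KO and 4391 ± 469 in WT.

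Of 43 other tested immediate early genes 27 estimates were higher and 16 lower, with a median of 0.05. Klf4, a Krüppel-like factor linked to quiescence in T cells, was at 12.9, 31.5 and 34.9 in KO 1 to 3 and at 4.40, 4.53, 9.05 and 8.43 in WT 1 to 4. Its groups did not overlap, at a low level (log2 fold change 1.8, SE 0.77; limma unadjusted p = 0.0375, adjusted p = 1.00). Csrnp1 was at 175 ± 76.9 in KO and 247 ± 62.2 in WT. Rgs1, an abundant regulator of G-protein signalling, had 8984, 9608 and 8468 in KO 1 to 3 and 7526, 7198, 5595 and 15935 in WT 1 to 4, again with WT 4 highest and WT 3 lowest as for Fos. Averaged over the 43 genes, the deviation from the mean was 0.24 in WT 4 and -0.24 in WT 3, and between -0.15 and 0.10 in the other 5 libraries.

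Upstream regulators are the proteins that carry the stimulus to these promoters. Of 24 tested serum response, CREB and NFAT regulators 13 estimates were higher and 11 lower (median 0.01). Crtc1, a CREB coactivator, was at 25.8 ± 4.91 in KO and 50.5 ± 16.9 in WT without overlap (log2 fold change -0.90, SE 0.48; limma unadjusted p = 0.0828), whereas Ets1 was at 12142 ± 1021 in KO and 10846 ± 554 in WT and Crebbp at 2098 ± 283 in KO and 1909 ± 151 in WT. Of 26 tested genes of the ERK, JNK and p38 cascades 15 were higher and 11 lower (median 0.03). Braf was at 361 ± 108 in KO and 209 ± 88.7 in WT without overlap (log2 fold change 0.89, SE 0.40; limma unadjusted p = 0.0438, adjusted p = 1.00). The T cell Ras activator gene Rasgrp1 was at 3168 ± 145 in KO and 2894 ± 454 in WT. Map2k7, the gene of a JNK-activating kinase, named here after its values were seen, had 142 to 176 in KO and 178 to 204 in WT. Its log2 fold change was -0.28 (SE 0.25; limma unadjusted p = 0.294).

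Of 30 tested T cell receptor responsive genes 12 estimates were higher and 18 lower (median -0.06). Icos was at 6717 ± 622 in KO and 5480.5 ± 1070.4 in WT, Tnfrsf4, the gene of OX40, at 6588 ± 693 in KO and 6716 ± 1853 in WT, and the chemokine gene Xcl1 at 140.1 ± 78.4 in KO and 319 ± 284 in WT. Averaged over the 30 genes, the deviation was -0.28 in KO 3 and 0.44 in WT 2, the 2 libraries at the ends of Egr1 and Egr2. KO 3 and WT 2 were also the ends of the first principal component of all tested genes. A link of this list to the Egr genes was not tested. Of 22 tested cell isolation stress genes 16 were higher and 6 lower (median 0.27). The heat shock genes Hsph1, at 3123 ± 1456 in KO and 1666 ± 350 in WT, and Hsp90aa1, at 8935 ± 3386 in KO and 5275 ± 1305 in WT, had the smallest p of that list (limma unadjusted p = 0.0301 and 0.0314, adjusted p = 1.00 each). KO 1 was close to the WT libraries for both, with 1446 for Hsph1 and 5104 for Hsp90aa1. Of the 15 tested decay factors of AU-rich mRNAs, a class to which many immediate early transcripts belong, 10 were higher and 5 lower (median 0.06), and Zc3h12a, the gene of the RNase Regnase-1, was at 103 ± 44.5 in KO and 142 ± 17.1 in WT.

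Genes whose pattern was most like that of the most abundant gene of each family were taken by Pearson r of log2(normalized count + 1) over the 7 libraries, among 8026 other genes with a mean of at least 100. For Nr4a1 these were Lpcat4 (0.99), Lrrc42 (0.98), Stx6 (0.98) and Nup50 (0.98). For Egr1 they were Idh3g (0.99), Aph1a (0.98), Sash3 (0.98) and Dpp9 (0.98), and for Junb Pea15a (0.98), Vcp (0.98), Serpina3g (0.98) and Maged2 (0.97). They were the top 4 of 8026 candidates each and are a description of likeness over 7 libraries.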

How the data were processed

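RNA from YFP+ Treg cells (10 ng per sample) was made into SmartSeq2 libraries and sequenced on a NextSeq 500, per the labels' protocols. Tools listed without a role in the submitters' processing notes are kallisto 0.44, DESeq2, Partek 6.6, CASAVA 1.8 and R 3.3.1, and the build is mm10. The deposited values are a normalized signal that the authors made from reads: after subtraction of 1, 100% of the values in each library were multiples of a fixed step, to within 0.01 of a read. Normalized counts are the deposited values minus 1, and reads were recovered from the steps.

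KO and WT were compared with limma 3.58.1 in R 4.3.3 (trended eBayes, no covariate) on log2(normalized count + 1) over all genes with a mean of at least 10 (11787 of 15815), with Benjamini-Hochberg adjustment at 0.05. Fold changes are on that scale and understate those of low genes. The deposited values are not counts, so no negative binomial model was run, and voom on the recovered reads was an alternative. Single values were also tested by exact permutation over the 35 splits, and correlations by exact permutation of the 7 libraries. No 2 libraries agreed within sampling noise (lowest chi-square per degree of freedom 12.8). Of the methods, only the limma comparison was also run on simulated data with known fold changes. Intervals from reads cover counting error only, since SmartSeq2 has no molecular identifiers.

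The 10 genes and the lists were chosen with earlier results of these data known. Named beside them are, from each pathway list, the 2 genes with the smallest p and the 2 most abundant, from each marker list the 2 most abundant, and the 4 genes most like the most abundant gene of each family. Not all of those are printed, and 1 is not reported here. GENCODE M21 for GRCm38, which is mm10, gave coordinates and transcript lengths, and RefSeq (GRCm38.p6) the promoter windows.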

Additional observations from a re-analysis of the deposited data

Results flagged for a closer look

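Of 61 genes tested for 1 WT library far from the other 3, 3 had a gap to the nearest library above the 95% critical value of Dixon's ratio (gap over the whole WT range). Chance alone flags about 1 in 20 such groups, which is about 3 of 61, about the number found. Nr4a3 in WT 1 was at 134, against 262 to 286 in the other 3 WT libraries, a gap of 0.839 of the range. Itch, a gene of the anergy list, was at 447 in WT 2 and at 719 to 736 in the others, a gap of 0.942. Lyz2, a myeloid marker, was at 47.5 in WT 3 and at 962 to 1090.1 in the others, a gap of 0.877. The 3 KO libraries are too few for this comparison.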

How the results depend on the processing

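The count of genes past an adjusted p of 0.05 was 0 in the fit to all libraries and 0 whichever single library was left out. It was 4 with array weights, 4 without both WT 2 and KO 3, and 3 with the replicate number as a block. None of these were among the 10 genes or the 187 pathway genes. The numbers shared by KO and WT libraries did not mark pairs (correlations of deviations 0.01, -0.04 and 0.09). The block gave log2 fold changes of 0.017 for Egr3, 1.15 for Fos and 0.78 for Fosl2, the same as without WT 4, since WT 4 has no KO library of its number and drops out of the comparison.

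Signs turned in these cases, and the cause was not tested. Without both WT 2 and KO 3 the log2 fold change was 0.050 for Nr4a1, 0.34 for Egr1, 0.41 for Egr2 and 0.18 for Junb. With array weights it was 0.12 for Egr1 and 0.19 for Egr2. Leaving out 1 library at a time gave -0.37 to 0.17 for Egr1, -1.45 to 0.19 for Egr2, -0.51 to 0.019 for Egr3, -0.32 to 0.41 for Jun and -0.44 to 0.023 for Junb. Nr4a2, Nr4a3, Fos and Fosl2 kept their sign in all 20 alternatives, with Nr4a2 between -0.85 (without both WT 2 and KO 3) and -0.12 (without KO 1), Nr4a3 between -0.54 (without WT 1) and -0.14 (without both), Fos between 0.08 and 1.15, and Fosl2 between 0.46 and 0.82. Correlations that turned were Nr4a1 with Fosl2 (0.53 without both WT 2 and KO 3, which are also the libraries farthest from the median of Nr4a1; -0.92 to 0.12 leaving out 1 library), Fos with Jun (-0.73 without the 2 farthest libraries; -0.093 to 0.96) and Junb with Fosl2 (0.015 without both). Positive pairs numbered 26 to 31 of 45 leaving out 1 library and 27 to 33 otherwise. Depth limits Egr2 in KO 3 (20 reads), and no difference in the 10 genes was detectable beyond the spread between libraries.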

Other observations

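The ratio of Fos to Jun, 2 partners in AP-1, was 0.276, 0.229 and 0.835 in KO 1 to 3 and 0.225, 0.237, 0.144 and 0.433 in WT 1 to 4. KO 3, which had a low Jun level and a high Fos level, held the highest ratio, and WT 3 the lowest. The ratio of Fosl2 to Fos was 0.503, 0.562 and 0.367 in KO 1 to 3 and 0.430, 0.243, 2.12 and 0.208 in WT 1 to 4, so WT 3 was the 1 library with more normalized counts for Fosl2 than for Fos. The ratio of Jun to Junb stayed within 0.434 to 0.711 in KO and 0.389 to 0.559 in WT.

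Fosb, a further Fos-family gene chosen after its values were seen, had 25.8, 36.4 and 3.68 in KO 1 to 3 and 20.9, 35.3, 30.5 and 41.5 in WT 1 to 4. KO 3 was lowest for Fosb, a value that rests on 2 reads, and for Egr2, while its Fos level was second among the 7 libraries. Dusp1, the gene of a MAP kinase phosphatase and likewise chosen after its values were seen, had 2318, 2874 and 2832 in KO 1 to 3 and 2003, 2413, 1345 and 5389 in WT 1 to 4, with WT 4 highest and WT 3 lowest as for Fos.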
